A study of Mus musculus with 84 samples.

Results

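Injured and uninjured mouse microglia were compared at day 14 after traumatic brain injury (TBI), from 3 libraries that the labels give as injury with no other treatment and 3 that they give as uninjured. They were selected by day, treatment and library year from the labels, and are 6 of the 84 libraries of the series and the only ones of their library year. The whole study sequenced RNA of sorted microglia at days 1, 7, 14, 30 and 60 after TBI, with peripheral monocytes depleted by clodronate liposomes, with vehicle liposomes, with injury alone, or with no injury. None of the 6 libraries had liposomes of either kind. The sample titles call the controls sham and the library names call them naive, so whether they had surgery without injury cannot be told from the labels. No strain, sex, age or genotype is given in the labels, and nothing says whether a library came from 1 mouse or from pooled mice. P-values therefore measure the spread between libraries, part of which may be technical.

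Microglia are the resident macrophages of the brain. At rest they express genes such as Tmem119, P2ry12 and Sall1, which depend on signals from the brain and are low or absent in macrophages that arrive from the blood. Near injured or degenerating tissue many microglia take on a state known as disease-associated, in which genes of lipid transport and lysosomal digestion such as Apoe, Lpl, Spp1, Gpnmb and Cst7 are raised. Interferons raise another group of genes, among them the Ifit and Oas families, which restrict viruses. After TBI monocytes and neutrophils enter the brain, and a sort for microglia may carry some of them along.

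The 3 injured libraries held 13958309, 16365113 and 16471892 counts on genes, and uninjured libraries 1, 2 and 3 held 13758391, 10390525 and 8681681. Levels are in CPM, the count of a gene scaled to a fixed library total, on library sizes scaled by the trimmed mean of M values (TMM) over the 16 libraries of day 14. The 3 uninjured libraries did not resemble one another. Over 8123 genes whose mean log2 CPM was at least 3, the root mean square (RMS) difference in log2 CPM between 2 injured libraries was 0.343 to 0.462. Between 2 uninjured libraries it was 0.876 to 1.888. The library labelled uninjured 1 was as close to the injured libraries, at 0.29 to 0.414, as those were to each other. Library 1 thus goes against its label, and so does library 3, which held genes of blood-derived cells. Whether either was mislabelled or mixed with other material was not tested, and every uninjured mean, fold change and count of calls in this comparison rests on the labels as given. Uninjured library 2 lay 0.823 to 0.928 from them and uninjured library 3 lay 1.689 to 1.715 from them. At 14.15% to 17.7% of genes library 2 differed more than 2-fold from an injured library, and at 39.11% to 40.38% library 3 did, against 0.81% to 2.76% for library 1 and 1.88% to 3.9% between injured libraries.

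**Figure D1:**
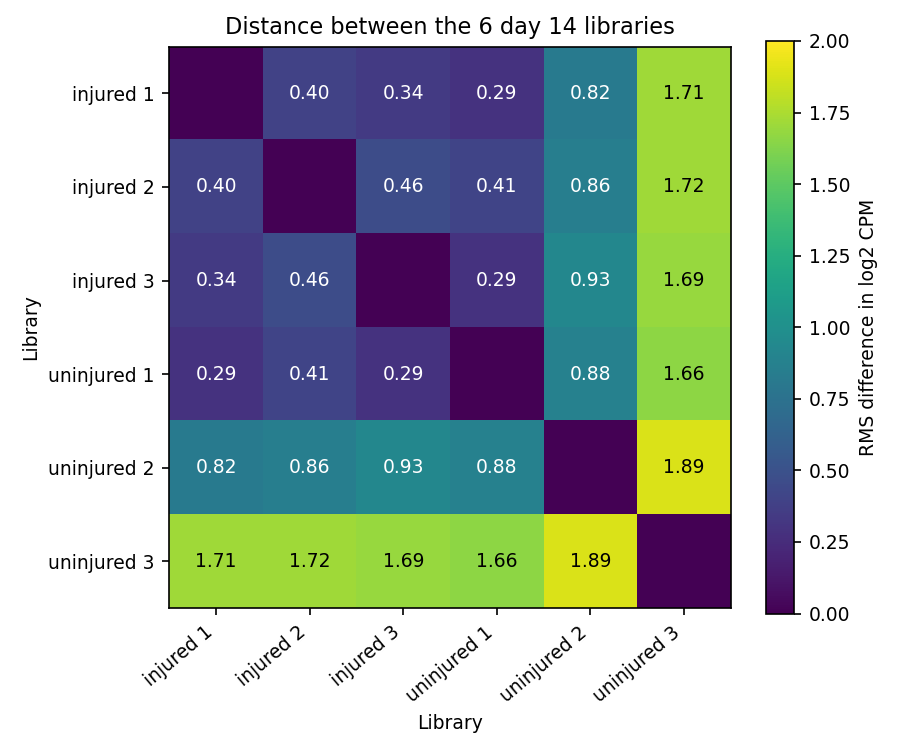
RMS difference in log2 CPM over 8123 genes for each pair of the 6 day 14 libraries, on a colour scale from 0 to 2. The library labelled uninjured 1 falls within the block of the injured libraries, at 0.414 or less from each, and uninjured library 3 is at 1.662 or more from every other library.

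No other group of the series spread this far. The common biological coefficient of variation was 1.008 in the uninjured day 14 group, 0.254 in the injured day 14 group and 0.197 to 0.675 in the other 20 groups. With 1 scaling over all 84 libraries, the nearest library to uninjured 1 was injured library 1 (RMS 0.286), and uninjured library 1 was the nearest to injured libraries 1 and 3. The nearest to uninjured library 2 was an uninjured library of day 7, at 0.77. Uninjured libraries of day 7 lay 0.256 to 0.432 from each other. At ranks 4 and 5 from library 2 came a clodronate-treated and an injury-only library, both of day 30 (0.803 and 0.814). Uninjured library 3 had no near neighbour: the closest of the other 83 lay 1.764 away. No pair of the 6 was a copy, since chi-square over degrees of freedom was 14.9 or more for each. Uninjured libraries 2 and 3 also had fewer uniquely aligned reads (86.1% and 85.95% against 90.01% to 90.57% in the other 4), and a count on 16427 and 14221 genes against 17060 to 19158. The part of depth and alignment in their distance was not tested.

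In the comparison as designed no gene passed the test. With edgeR's quasi-likelihood test on the 16 libraries of day 14, 0 of 14354 genes had a Benjamini-Hochberg adjusted p under 0.05 (0% called), and the lowest adjusted p was 0.3156. At an unadjusted p under 0.05 there were 1963 genes (13.7%), of which 707 were higher (4.93%) and 1256 lower (8.75%) after injury. DESeq2 called 101 genes, 23 higher and 78 lower, and limma voom with quality weights called 0, with 202 at an unadjusted p under 0.05. The groups did not overlap at 954 genes that were higher (6.65%) and 625 that were lower (4.35%) in all 3 injured libraries. The count turned on 1 library. Without the library labelled uninjured 1 the same test called 1835 of 15061 genes, 1145 higher (7.6%) and 690 lower (4.58%), while it called 0 without uninjured library 2 and 0 without uninjured library 3. Those 1835 calls took their spread from all 15 libraries left. In a fit of only the 3 injured libraries and uninjured libraries 2 and 3, an alternative added after the data were seen, 0 genes were called and 1661 had an unadjusted p under 0.05. In bulk samples, fewer cells of a type and less RNA per cell cannot be told apart, which holds for every level below.

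Homeostatic microglial genes separated uninjured library 3 from the other 5 libraries rather than injury from no injury. Tmem119 (a surface protein that marks resident microglia; chromosome 5, 113793729 to 113800516, GRCm38) was at 4253, 4584 and 3184 CPM after injury and at 3077, 6550 and 162 CPM in uninjured libraries 1, 2 and 3. P2ry12 (the ADP receptor that guides microglial processes to damage; chromosome 3, 59216272 to 59262871) was at 3238, 2428 and 2381 CPM against 2330, 2486 and 157 CPM. For Tmem119 the highest and the lowest of the 6 values were both uninjured. Sall1, the transcription factor that maintains microglial identity, was at 184 to 229 CPM after injury, at 175 and 136 CPM in uninjured libraries 1 and 2, and had no count in library 3, where 3 counts would be 0.327 CPM. Csf1r, the receptor for the growth factor on which microglia live, was lower in library 3 by less, with 2732 CPM against 9731 to 11000 CPM in the other 5.

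Of the 22 homeostatic genes all were tested, 22 had a higher fitted level after injury, 0 passed the test (0% of all genes) and none had an unadjusted p under 0.05. In 5 of them (P2ry13, Cx3cr1, Sall1, Tgfbr1 and Golm1) every injured value was above every uninjured one, against 6.65% of all genes. Their median log2 fold change of 0.59, against 0.004 over all genes, rested on library 3: without it the median was 0.07. The fitted log2 fold change of Tmem119 was 0.30 ± 0.71 (standard error, SE; adjusted p = 0.86) and became -0.24 without library 3, and that of P2ry12 was 0.69 ± 0.77 (adjusted p = 0.677). All 22 were lower in library 3 than in any injured library, where 50.3% of all genes were. Library 2 was lower than every injured library at 9 of them and higher at 8, where 40.9% and 34.9% of all genes were.

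For 6 leading disease-associated genes library 1 was among or above the injured libraries, and libraries 2 and 3 were both far lower. Apoe (the main lipid carrier of the brain; chromosome 7, 19696109 to 19699188) was at 31260, 61980 and 44820 CPM after injury and at 52070, 2383 and 5289 CPM in uninjured libraries 1, 2 and 3. Spp1, which encodes the secreted protein osteopontin (chromosome 5, 104435118 to 104441050), was at 1960, 5481 and 3736 CPM against 6010, 24.5 and 5.88 CPM. Library 1 held the highest Spp1 level of the 6. Gpnmb, a membrane glycoprotein of lipid-laden phagocytes (chromosome 6, 49036546 to 49070929), was at 348, 558 and 493 CPM against 742, 8.13 and 37.9 CPM. Cst7, an inhibitor of lysosomal cathepsins (chromosome 2, 150570415 to 150578944), was at 148, 284 and 244 CPM against 279, 1.79 and 5.55 CPM. Lpl, which releases fatty acids from lipoproteins (chromosome 8, 68880491 to 68907448), was at 320, 485 and 529 CPM against 497, 16.1 and 63.8 CPM. Igf1, a growth factor, was at 46.0, 77.4 and 82.7 CPM against 80.9, 0 and 5.12 CPM. For Spp1 and Gpnmb library 1 lay above the injured range, and for the other 4 within it.

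The 25 genes of the disease-associated list were all tested, with 19 higher and 6 lower in the fit after injury, 0 called (0% of all genes) and 1 with an unadjusted p under 0.05. The mean of Apoe was 46020 ± 15400 CPM (SD, n = 3) after injury and 19920 ± 27890 CPM (SD, n = 3) without, a log2 fold change of 1.21 ± 1.13 (SE; adjusted p = 0.622). Spp1 had 0.89 ± 1.73 (adjusted p = 0.823), Gpnmb 0.83 ± 1.54 (adjusted p = 0.814), Cst7 1.24 ± 1.25 (adjusted p = 0.651) and Lpl 1.21 ± 0.95 (adjusted p = 0.564) on the same scale. The uninjured SD was larger than the uninjured mean in Apoe, Spp1, Gpnmb, Cst7 and Lpl. Library 1 was within the injured range at 19 of the 25 genes and above it at 6, where 57.7% and 21.5% of all genes were. Library 2 was below every injured library at 24 of 25, against 40.9% of all genes. The exception was Trem2, the receptor through which microglia sense lipids, at 1979 CPM in library 2 and 1590 to 2203 CPM after injury.

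Library 1 was singled out for its high Apoe before these fits, so the calls made without it describe the remaining libraries and support no injury effect on genes that are high in it. In that fit 7 of the 25 (Spp1, Lpl, Cst7, Igf1, Csf1, Cd9 and Cd68) passed as higher after injury, where 7.6% of all genes did, and 1 as lower, where 4.58% did. Ccl6, a chemokine of myeloid cells, was the gene that passed as lower, with 4799 CPM in library 3 against 150 to 254 CPM in the other 5. The median log2 fold change of the list was 0.61 with all libraries, 1.43 without library 1, 0.53 without library 2 and 0.35 without library 3. Library 3 was below every injured library at 18 of the 25, where 50.3% of all genes were, and above at the other 7 (Lyz2, Lgals3, Clec7a, Cd52, Ccl6, Itgax and Tyrobp), where 34.6% were. The count above is thus no higher than the background. Lyz2, the lysozyme gene, was at 33940 CPM there against 727 to 4621 CPM in the others.

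**Figure D2:**
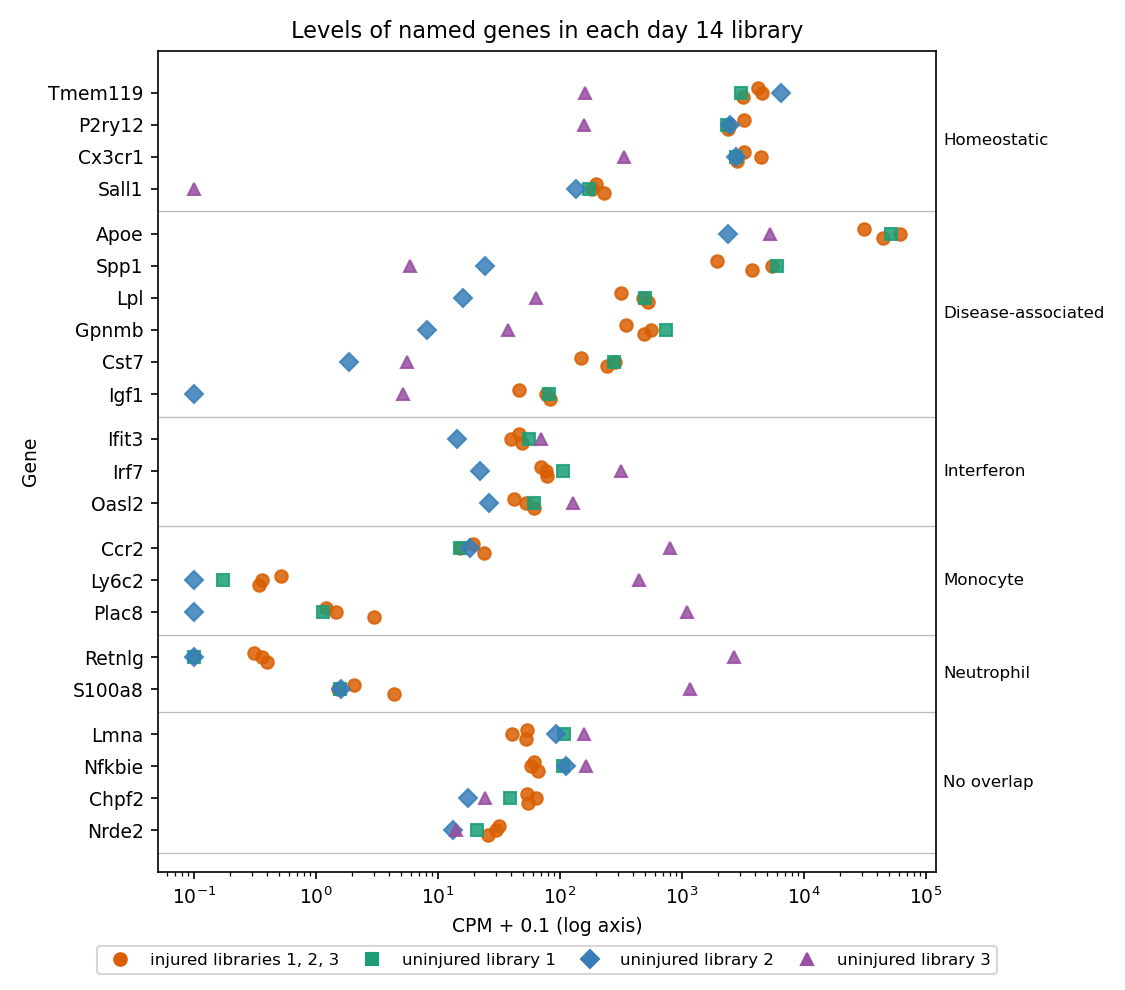
CPM plus 0.1 on a log axis for 22 genes in each of the 6 libraries, with the injured libraries as circles and uninjured libraries 1, 2 and 3 as a square, a diamond and a triangle. For Apoe, Spp1, Lpl, Gpnmb, Cst7 and Igf1 the square sits with the circles, and for Ly6c2, Plac8 and Retnlg the triangle sits more than 100-fold above all other points.

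Apoc1 and Ch25h, of the lipid list, were likewise at injured levels in library 1 and lower in libraries 2 and 3. Apoc1, which neighbours Apoe in the genome and encodes another lipoprotein component, was at 21.9, 66.6 and 42.8 CPM after injury and at 49.97, 0.447 and 3.59 CPM without. Ch25h, which makes a hydroxylated cholesterol, was at 22.96, 37.7 and 42.4 CPM against 50.3, 1.96 and 1.96 CPM. The list of cholesterol and lipid handling as a whole was split, with 6 of 15 tested genes higher and 9 lower after injury and 0 called. Library 2 was below every injured library at 13 of the 15, where 40.9% of all genes were. Library 3 was instead above every injured library at 10 of the 15 and below at 5, where 34.6% and 50.3% of all genes were.

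Most lysosomal and complement genes were lower in libraries 2 and 3 than in any injured library. Of 16 lysosomal genes 13 were higher and 3 lower in the fit after injury with 0 called. Library 1 lay within the injured range at 13, where 57.7% of all genes did. Library 2 lay below it at 13 and library 3 at 12, where 40.9% and 50.3% of all genes did. Mcoln1, a calcium channel of the lysosomal membrane, was at 96.95, 106.5 and 104.1 CPM after injury and at 104.9, 37.2 and 26.5 CPM without. Lamp2, a protein of the lysosomal membrane, was at 748, 753 and 821 CPM against 820.3 CPM in library 1 and 339.8 and 593 CPM in libraries 2 and 3. Of 12 complement genes 9 were higher in the fit after injury and 0 were called. Library 2 was below every injured library at 9 and library 3 at 8, where 40.9% and 50.3% of all genes were. The median difference of library 3 from the injured mean was -2.42 on the log2 scale for the complement genes and -0.322 over all genes. C1qa, C1qb and C1qc, the chains of the first complement component that microglia make in quantity, were alike in 5 libraries (C1qb at 8369 to 11370 CPM) and low in library 3 (C1qb at 507 CPM). C4b, a later component, was instead low in both libraries 2 and 3, at 12.7 and 15.8 CPM against 98.3 to 166 CPM in the other 4.

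Interferon-response genes were lowest in uninjured library 2 and reached or passed the injured level in the other uninjured libraries. Ifit3, of the antiviral Ifit family, lies on chromosome 19, 34583531 to 34588731. It was at 46.0, 39.8 and 49.1 CPM after injury and at 55.6, 14.4 and 70.6 CPM in uninjured libraries 1, 2 and 3. Irf7, the factor that amplifies interferon production, was at 69.9, 77.8 and 78.5 CPM against 106.2, 22.2 and 320.1 CPM. Ifitm3, which stops viruses at the endosome, was at 59.1, 70.2 and 92.5 CPM against 98.97, 26.3 and 1745 CPM. Each of the 3 genes had its lowest and its highest value among the uninjured libraries. Of the 26 genes 8 were higher and 18 lower in the fit after injury, with 0 called, and Ifit3 had a log2 fold change of -0.06 ± 0.65 (SE; adjusted p = 0.971). Library 2 was below every injured library at 22 of 26, where 40.9% of all genes were, library 1 above at 16, where 21.5% were, and library 3 above at 21, where 34.6% were.

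Promoters of an interferon gene pair and of 2 disease-associated genes are given here because library 3 was above the injured libraries at most interferon genes and below them at most disease-associated genes, while library 2 was below them at most of both. They are RefSeq sequences of GRCm38.p6, 250 bases before to 50 after the start of the gene, read 5′ to 3′ in the direction of the gene. In the first 2, capitals mark the core of the interferon-stimulated response element (GAAA, any 2 bases, GAAA) on either strand, and in Oas1a a pair of matches overlaps.
Ifit3 (chr19:34583279-34583578, plus strand): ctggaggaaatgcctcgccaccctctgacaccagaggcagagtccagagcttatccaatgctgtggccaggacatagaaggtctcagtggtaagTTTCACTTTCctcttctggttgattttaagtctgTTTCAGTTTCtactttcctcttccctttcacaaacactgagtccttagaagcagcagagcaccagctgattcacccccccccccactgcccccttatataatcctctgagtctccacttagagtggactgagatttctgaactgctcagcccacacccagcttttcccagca
Oas1a (chr5:120907476-120907775, minus strand): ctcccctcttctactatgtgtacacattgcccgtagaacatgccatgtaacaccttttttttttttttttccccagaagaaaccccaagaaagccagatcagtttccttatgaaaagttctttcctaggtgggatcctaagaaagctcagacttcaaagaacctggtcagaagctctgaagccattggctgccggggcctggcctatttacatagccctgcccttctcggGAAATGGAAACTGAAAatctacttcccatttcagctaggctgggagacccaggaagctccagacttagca
The Ifit3 matches began 156 and 122 bases before the start and those of Oas1a 20 and 14 before it. This motif was found in 12 of the 19 interferon-list genes that have a promoter in the table, and in 3.99% of 27025 genes (3.44% of 32851 promoters). In the other 2 sequences, capitals mark TGANTCA, the AP-1 site, which reads alike on both strands.
Gpnmb (chr6:49036268-49036567, plus strand): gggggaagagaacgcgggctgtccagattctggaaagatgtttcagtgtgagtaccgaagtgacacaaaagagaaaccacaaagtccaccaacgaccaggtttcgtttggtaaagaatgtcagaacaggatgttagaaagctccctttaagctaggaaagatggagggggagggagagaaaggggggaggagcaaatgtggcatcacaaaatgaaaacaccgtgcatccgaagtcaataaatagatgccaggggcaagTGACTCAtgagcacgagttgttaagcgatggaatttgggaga
Cst7 (chr2:150570165-150570464, plus strand): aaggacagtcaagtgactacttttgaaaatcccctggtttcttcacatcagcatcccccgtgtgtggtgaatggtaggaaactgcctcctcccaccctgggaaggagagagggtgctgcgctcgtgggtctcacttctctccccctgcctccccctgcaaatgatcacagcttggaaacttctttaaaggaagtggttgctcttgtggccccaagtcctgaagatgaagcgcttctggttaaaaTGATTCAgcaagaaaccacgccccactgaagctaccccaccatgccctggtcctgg
Here 6 of 20 disease-associated genes with a promoter held the motif (Gpnmb, Cst7, Itgax, Trem2, Cd68 and Igf1), against 8.97% of genes (7.81% of promoters). A match describes these letters only and was not tested for binding.

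Genes of blood-derived myeloid cells were high in uninjured library 3 and low in the other 5. The 15 monocyte genes summed to 8889 CPM there and to 106 to 146 CPM in the other 5 libraries. Ccr2, the chemokine receptor that brings monocytes out of the marrow (chromosome 9, 124101950 to 124113557), was at 19.45, 15.25 and 24.03 CPM after injury and at 15.2, 18.4 and 797 CPM in uninjured libraries 1, 2 and 3. Ly6c2, which marks inflammatory monocytes, was at 0.421, 0.261 and 0.24 CPM against 0.0747, 0 and 449 CPM. Plac8 (1101 CPM) and Chil3 (1903 CPM) were likewise high in library 3, and no other library passed 2.88 CPM for either. The exception was Ly6a, which endothelial cells also express, at 3.38 CPM in library 3 and 15.7 to 25.7 CPM in the others. The fit gave 14 of the 15 genes as lower after injury, with 0 called (0% of all genes). Each of those 14 had an unadjusted p under 0.05, where 8.75% of all genes were lower at that level. Library 3 was singled out for its high Ccr2 and Ly6c2 before these fits. The p-values of this list therefore describe that library and support no injury effect. The median log2 fold change was -5.24, and 0.54 without library 3. Ccr2 had a log2 fold change of -3.82 ± 1.04 (SE; adjusted p = 0.316), which became 0.24 without library 3.

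Neutrophil, killer-cell and dendritic cell genes were high in the same library, and the summed B cell genes were not. The 12 neutrophil genes summed to 9942 CPM in library 3 and 449 to 793 CPM in the others, of which Csf3r, the receptor for a granulocyte growth factor that microglia also express, made up most. Retnlg, a secreted protein of neutrophils, was at 2670 CPM in library 3 and at 0.3004 CPM or less in the other 5. The granule genes Ngp (2239 CPM), Ltf (1382 CPM) and Camp (656 CPM) and the calprotectin genes S100a8 (1161 CPM) and S100a9 (1082 CPM) were at 7.33 CPM or less elsewhere, whereas Mpo, an early granule enzyme, had no count in library 3. Killer-cell genes were lower in level but present, with Gzma at 113 CPM and Nkg7 at 85.3 CPM in library 3, and Gzma had no count in the other 5. The 14 T and NK cell genes summed to 416 CPM against 1.07 to 6.39 CPM, with Cd4 and Cd8a at 0 in library 3. The 8 B cell genes summed to 481.4 CPM in library 3 and 439.8 to 607.3 CPM in the others, most of it Ighm, while Ms4a1, the B cell surface protein CD20, was at 18.8 CPM in library 3 and 0.351 CPM or less elsewhere. The 9 dendritic cell genes summed to 513 CPM against 52.8 to 66.4 CPM, mostly Cd209a (319 CPM). The part of these cell types in the other results of library 3 was not tested.

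MHC class II genes, which present antigen and which monocytes and dendritic cells express well above resting microglia, summed to 19430 CPM in library 3 and to 2024 to 3481 CPM in the others. H2-Ab1 (chromosome 17, 34257689 to 34269419) was at 477, 857 and 558 CPM after injury and at 402, 558 and 5113 CPM without, a log2 fold change of -1.68 ± 0.76 (SE; adjusted p = 0.356) that became 0.42 without library 3. Of the 9 genes 8 were lower in the fit after injury and 0 were called. Ciita, the switch of the class II genes, did not overlap (1.38 to 1.56 CPM against 1.72, 3.04 and 37.9 CPM), against 4.35% of all genes. Of the border-associated macrophage genes, Lyve1, Pf4, Folr2 and Cd209f had no count in library 3, while F13a1 (966 CPM) and Clec12a (272.5 CPM), which monocytes also express, were highest there. Mrc1, their mannose receptor, was at 59.95, 67.9 and 107.5 CPM after injury and 89.5, 28.6 and 21.1 CPM without. Ms4a7 was at 58.4, 146 and 98.1 CPM against 107.3, 23.4 and 22.2 CPM, so that library 1 again lay within the injured range.

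**Figure D3:**
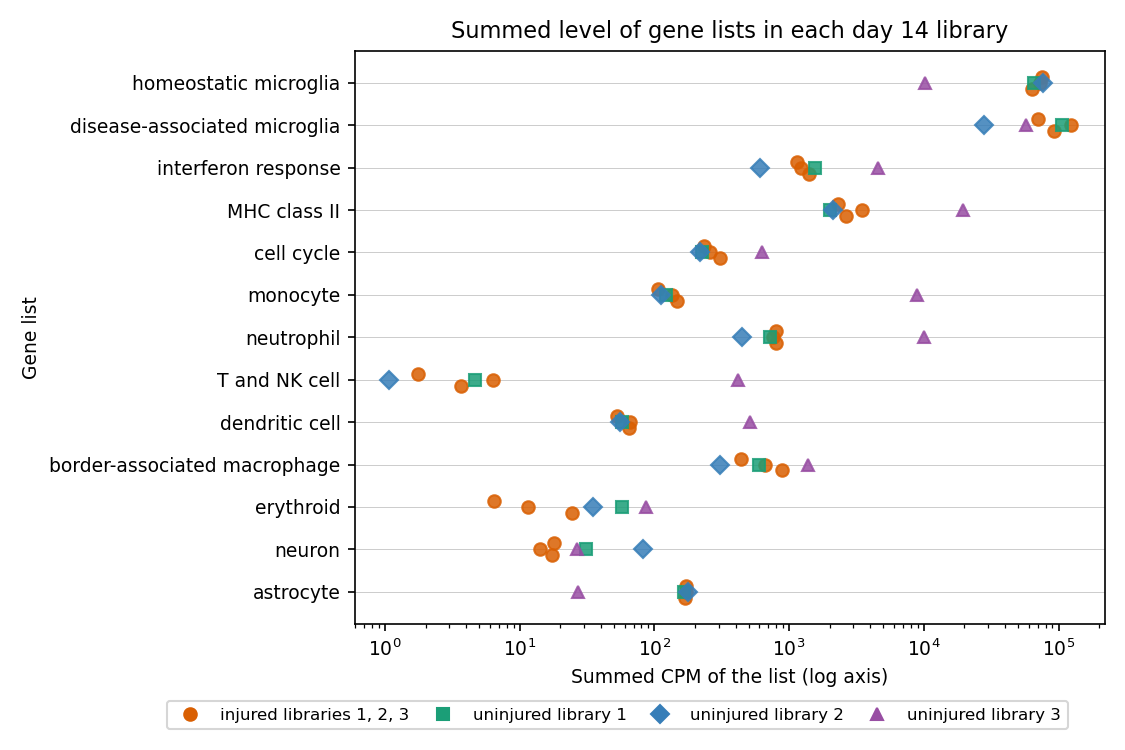
Summed CPM of 13 gene lists on a log axis in each of the 6 libraries, with the injured libraries as circles and uninjured libraries 1, 2 and 3 as a square, a diamond and a triangle. The triangle is alone at 8889 CPM for monocyte and 9942 CPM for neutrophil genes, and for erythroid and neuron genes all 3 uninjured libraries lie above all 3 injured ones.

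Cytokine genes gave no common direction, with 12 of 24 higher and 12 lower in the fit and 0 called. Il1b, the inflammatory cytokine, was at 370, 260.4 and 579 CPM after injury and at 957, 182 and 1611 CPM without. The monocyte attractants Ccl2 and Ccl12 did not overlap between the groups, 2 of 24 where 6.65% of all genes did so. That count is near the background. Ccl2 was at 169.5, 179 and 166 CPM against 117, 131.8 and 98.6 CPM. Ccl12 was at 397, 412 and 403 CPM against 379, 175 and 5.23 CPM. Library 1 was above every injured library at 15 of the 24 and below at 2, where 21.5% and 20.9% of all genes were. Cell cycle genes summed to 625 CPM in library 3 and 219.8 to 305 CPM elsewhere, Top2a being at 53.6 CPM there and at 2.35 to 11.7 CPM in the others. Genes of handling and RNA quality differed by library too. Immediate early and heat shock genes summed to 92810 CPM in library 2, 28660 CPM in library 3 and 62510 to 72160 CPM in the other 4. Ribosomal protein genes summed to 2353 CPM in library 2, 6931 CPM in library 3 and 3171 to 4021 CPM in the other 4. At 25 of 25 of them library 1 was above every injured library, where 21.5% of all genes were. Their part in the differences between libraries was not tested.

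A pair of gene lists did separate all 3 uninjured from all 3 injured libraries, both from other cell types and both at low levels. The 5 erythroid genes summed to 6.46, 11.5 and 24.5 CPM after injury and to 57.9, 35.3 and 87.1 CPM without, and in 5 of 5 genes the groups did not overlap, against 4.35% of all genes. Hbb-bs, a beta-globin gene (chromosome 7, 103826534 to 103828096), was at 3.44, 5.22 and 10.2 CPM against 26.5, 13.2 and 34.7 CPM, a log2 fold change of -1.98 ± 1.17 (SE; adjusted p = 0.447). Globin genes have near-identical copies, among which reads may be shared. The 10 neuronal genes summed to 17.9, 14.1 and 17.5 CPM after injury and to 30.9, 82.1 and 26.7 CPM without. In 5 of 10 (Syt1, Rbfox3, Tubb3, Nefm and Map2) the groups did not overlap. All 10 were lower in the fit after injury and 0 were called, with a median log2 fold change of -1.59. With uninjured library 2 alone set against the injured libraries, 4 of the 10 passed as lower after injury, against 5.06% of all genes (10.5% passed as higher).

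Among genes of mean log2 CPM 3 and above whose groups did not overlap, those with the smallest p in each direction were low to moderate in level. Lmna, which encodes the nuclear lamins A and C (chromosome 3, 88480147 to 88509956), was at 53.8, 40.4 and 52.6 CPM after injury and at 107.7, 92.3 and 158 CPM without. Its log2 fold change was -1.29 ± 0.27 (SE), with an adjusted p of 0.316 in edgeR's quasi-likelihood test. Nfkbie, an inhibitor of NF-kB (chromosome 17, 45555703 to 45563169), was at 61.9, 58.5 and 65.7 CPM against 106.1, 113 and 165.6 CPM (log2 fold change -1.05 ± 0.23). For both genes every uninjured value was well above the highest injured one. Olfm1, a secreted protein best known from neurons, was at 6.04, 6.13 and 8.11 CPM against 13.2, 20.9 and 76.2 CPM (log2 fold change -2.44 ± 0.55), a fold that became -1.31 without library 3. Itgb7, Tppp3, Slc2a3 and Crip1 also lay lower without overlap, but their fold rested largely on library 3, with Itgb7, an integrin of lymphocytes and other leukocytes, at 1041 CPM there and at 2.04 to 5.27 CPM in the other 5. Arl13b, Zfp131 and Lsm8 made up the 10.

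On the higher side, Chpf2, which extends chondroitin chains (chromosome 5, 24586741 to 24594556), was at 53.99, 63.7 and 54.5 CPM after injury and at 38.8, 17.5 and 24.3 CPM without (log2 fold change 1.09 ± 0.24, SE). Nrde2, a nuclear RNA-processing factor (chromosome 12, 100125452 to 100159653), was at 31.8, 29.9 and 25.7 CPM against 20.8, 13.3 and 14.2 CPM (log2 fold change 0.85 ± 0.19). Helq, Cfap97, Rhbdd2, Prdm4, Cwf19l1, Ccdc130, Psmf1 and Snx14 followed, with log2 fold changes of 0.54 to 1.43. The adjusted p of all 20 was 0.316. Without library 1 all 20 passed the same test, with adjusted p from 0.00131 to 0.0416, and without library 2 or library 3 none did. Without library 1, 7.6% of all genes passed as higher and 4.58% as lower. The 20 were chosen from these same libraries by small p and no overlap, so their passing is no separate support. No gene passed in the fit of only the injured libraries and uninjured libraries 2 and 3.

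Each uninjured library was also described singly. Against the injured mean, 2.87% of genes were over 2-fold lower and 4.31% over 2-fold higher in library 1, 19.3% and 14.5% in library 2, and 35.6% and 18.4% in library 3. Against the mean of the other 2 uninjured libraries, the 10 genes most above in library 1 were led by Spp1, Igf1 and Cst7 and included Fabp5, a fatty-acid binding protein (118 CPM against 0 and 33.5 CPM), Colec12, a scavenger receptor (44.3 CPM against 0 and 4.57 CPM), Gpnmb and Apoc1. The injured libraries held these genes too, Colec12 at 21.1 to 42.7 CPM and Fabp5 at 56.9 to 99.1 CPM. Library 2 was lowest in C3, the central complement component (0 CPM, with 20.9 to 47.2 CPM after injury), Antxr2 (0 CPM) and Cmpk2, an interferon-raised enzyme (0 CPM, with 14.96 to 26.99 CPM after injury). In library 2, 3 counts would be 0.268 CPM. Adgre5, an adhesion receptor of leukocytes, led library 3 at 1452 CPM against 0.179 to 11.4 CPM in the other 5, followed by Ngp, Itgb7 and Itgal. Library 3 had no count of Ecscr, S1pr1 or Lrp12, at 133 to 194, 85.9 to 131 and 50.98 to 74.9 CPM in the other 5.

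Set beside the uninjured libraries of the other days, library 1 stood far above them for Apoe and Spp1, and libraries 2 and 3 lay within their range. With 1 scaling over all 84 libraries, Apoe in the uninjured groups was 1184 to 2154 CPM at day 1 (n = 5), 1668 to 2600 CPM at day 7 (n = 4), 738.5 to 9481 CPM at day 30 (n = 4) and 792 to 1193 CPM at day 60 (n = 3). The 3 uninjured libraries of day 14 had 54230, 2401 and 5471 CPM on that scale. Spp1 was 2.01 to 16.2 CPM in the uninjured libraries of days 1, 7, 30 and 60 except 1 of day 30 at 250 CPM, and 6259, 24.7 and 6.08 CPM at day 14. Without that 1 library of day 30, library 2 would be above the range for Spp1 and library 3 above it for Apoe. That library of day 30 was within the range of the injured libraries of its own day for Apoe (7445 to 11140 CPM) and Spp1 (101.5 to 293 CPM). Lpl and Cst7 in library 2 (16.2 and 1.8 CPM) were below the lowest of the 16 (20.3 and 4.14 CPM), while library 3 (66.0 and 5.74 CPM) was within their range. For Lpl this held only through that library of day 30, at 116.6 CPM, since no other of the 16 passed 43.2 CPM. Gpnmb in libraries 2 and 3 (8.19 and 39.2 CPM) was above all of the 16 except that library of day 30 (52.5 CPM). Injured libraries of day 14 held 32620 to 64990 CPM of Apoe, more than those of any other day. Tmem119 was 3214 to 6295 CPM in the uninjured libraries of the other days. Library 1 lay just below that range (3204 CPM), library 2 above it (6600 CPM) and library 3 far below it (168 CPM). Ccr2 was 2.79 to 12.7 CPM in uninjured libraries of the other days, against 15.8, 18.5 and 824.7 CPM at day 14. Retnlg was at 0.0775 CPM or less in the 16 and at 2761 CPM in library 3. Library year changes with day, and they cannot be told apart across days.

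**Figure D4:**
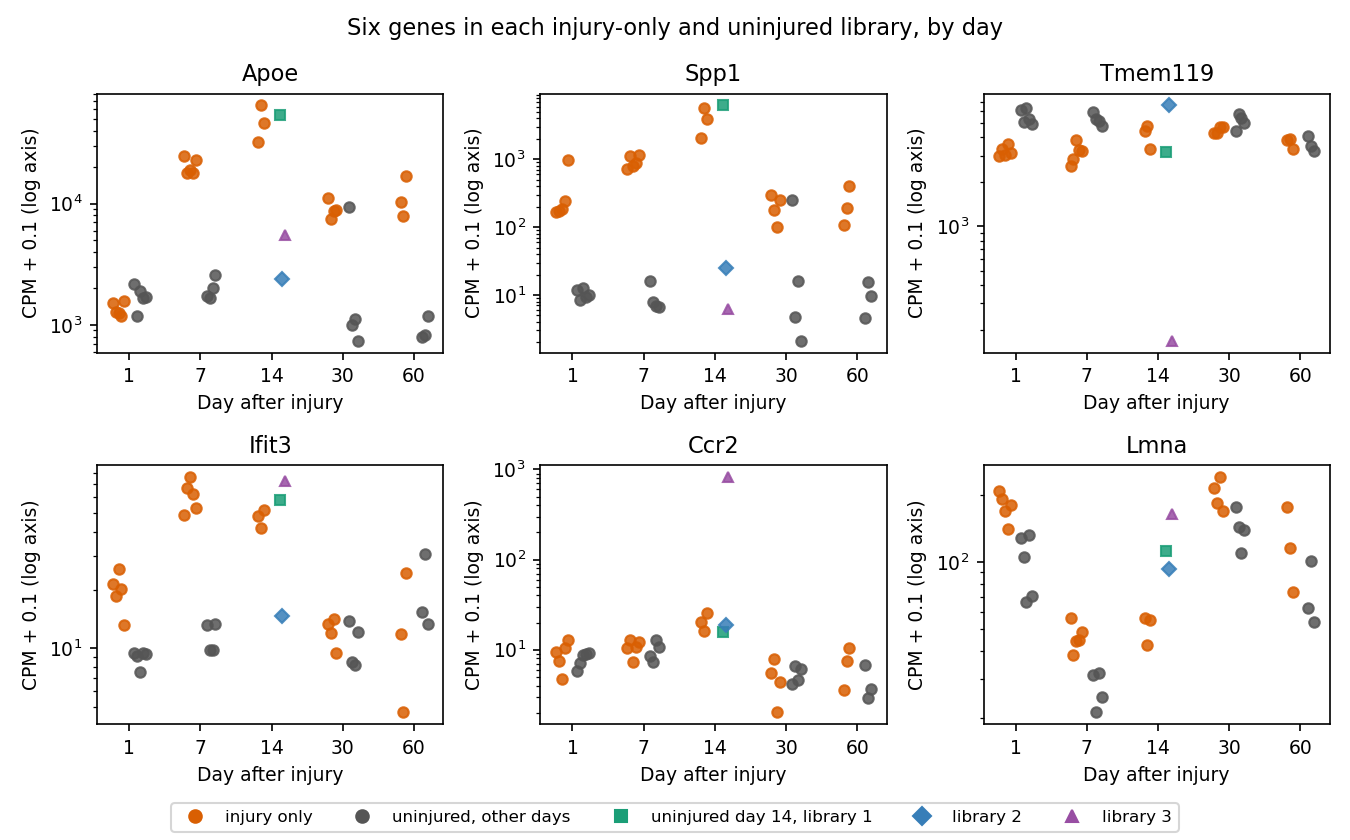
CPM plus 0.1 on a log axis, with 1 scaling over 84 libraries, of 6 genes in each injury-only and uninjured library by day; the uninjured libraries of day 14 have their own symbols. In Apoe and Spp1 library 1 sits with the injured libraries of day 14, and in Tmem119 and Ccr2 library 3 stands apart from all others.

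Whether the effect of injury at day 14 differed from that at neighbouring days was tested as an interaction in 1 fit of the injury-only and uninjured groups of days 7, 14 and 30. Both tests share the day 14 libraries. Against day 7, 63 of 14948 genes differed, 59 lower at day 14 (0.395%) and 4 higher (0.0268%), and against day 30 only Lmna did (0.00669% lower, 0% higher). Of the 26 interferon genes 14 were lower and all 26 had a negative difference, with a median of -2.53 on the log2 scale. Their median log2 fold change was 2.19 at day 7, where 20 of 26 passed as higher after injury (0.83% of all genes, and 0.174% lower), and -0.30 at day 14. Irf7 had 2.74 ± 0.45 (SE) at day 7 and -1.03 ± 0.50 at day 14, a difference of -3.78 ± 0.68 (adjusted p = 0.0274). Oasl2, an antiviral sensor relative, differed by -3.00 ± 0.53 (adjusted p = 0.0274), and Ifit3 by -2.57 ± 0.48 (adjusted p = 0.0379).

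The injured levels of Ifit3, Irf7, Oasl2 and Oas1a overlapped between the 2 days, and the uninjured ones did not. Ifi27l2a was lower in the injured libraries of day 14 (40.9 to 58.4 CPM) than in those of day 7 (77.9 to 128 CPM). Injured Ifit1 (15.5 to 16.6 against 19.5 to 27.3 CPM) and Zbp1 (14.1 to 14.4 against 16.2 to 17.4 CPM) were lower at day 14 too. Ifit3 was 48.4 to 76.4 CPM after injury at day 7 (n = 5) and 41.7 to 51.3 CPM at day 14 (n = 3), on the scaling over all libraries. In uninjured libraries it was 9.66 to 13.3 CPM at day 7 (n = 4), but 57.95, 14.5 and 72.99 CPM in libraries 1, 2 and 3 of day 14. With library 2 as the only uninjured library of day 14, a setting added after the data were seen, 4 interferon genes passed as lower and 1 as higher, where 6.94% and 11.4% of all genes did, and the median difference was -0.58. Under it the difference was -0.93 for Irf7 (adjusted p = 0.063), -0.78 for Ifit3 (adjusted p = 0.118) and -1.47 for Oasl2 (adjusted p = 0.0199). Without library 3 alone, 15 genes were called over all. Ifit3 (adjusted p = 0.0594) and Ifit1 (adjusted p = 0.0597) then missed the threshold, while Irf7 and Oasl2 passed it (both adjusted p = 0.0392).

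Lmna had the smallest p in both tests. In this fit of 3 days, whose spread comes from other libraries than that of the day 14 fit, 12 genes passed as lower (0.0803%) and 1 as higher (0.00669%) after injury at day 14 itself, among them Lmna (adjusted p = 0.0456), Nfkbie (adjusted p = 0.0304) and Olfm1 (adjusted p = 0.0456), which in the day 14 fit had a smaller fold without library 3. The injury effect on Lmna was 0.82 ± 0.18 (SE) at day 7, -1.32 ± 0.22 at day 14 and 0.50 ± 0.19 at day 30, so that day 14 differed by -2.13 ± 0.29 from day 7 (adjusted p = 0.00395) and by -1.82 ± 0.29 from day 30 (adjusted p = 0.0483), in edgeR's quasi-likelihood test. Against day 7 the difference held without library 1 (adjusted p = 0.000138), library 2 (adjusted p = 9.25e-05) or library 3 (adjusted p = 0.00432), and against day 30 it missed the threshold without library 3 (adjusted p = 0.0537). On the scaling over all libraries uninjured Lmna was 21.1 to 31.7 CPM at day 7, 93.1 to 163.5 CPM at day 14 and 110.1 to 177 CPM at day 30, and injured Lmna was 38.3 to 56.2, 42.3 to 56.1 and 168.9 to 241 CPM. The injured level was thus much the same at days 7 and 14, while the uninjured one was not, and library year differs between those days. Penk, the precursor of enkephalin peptides, differed by -5.63 ± 0.86 from day 7 (adjusted p = 0.0113) but was at 3.92 CPM or less in all 6 libraries of day 14, and Snx14, a sorting nexin, differed by 0.92 ± 0.16 (adjusted p = 0.0274).

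**Figure D5:**
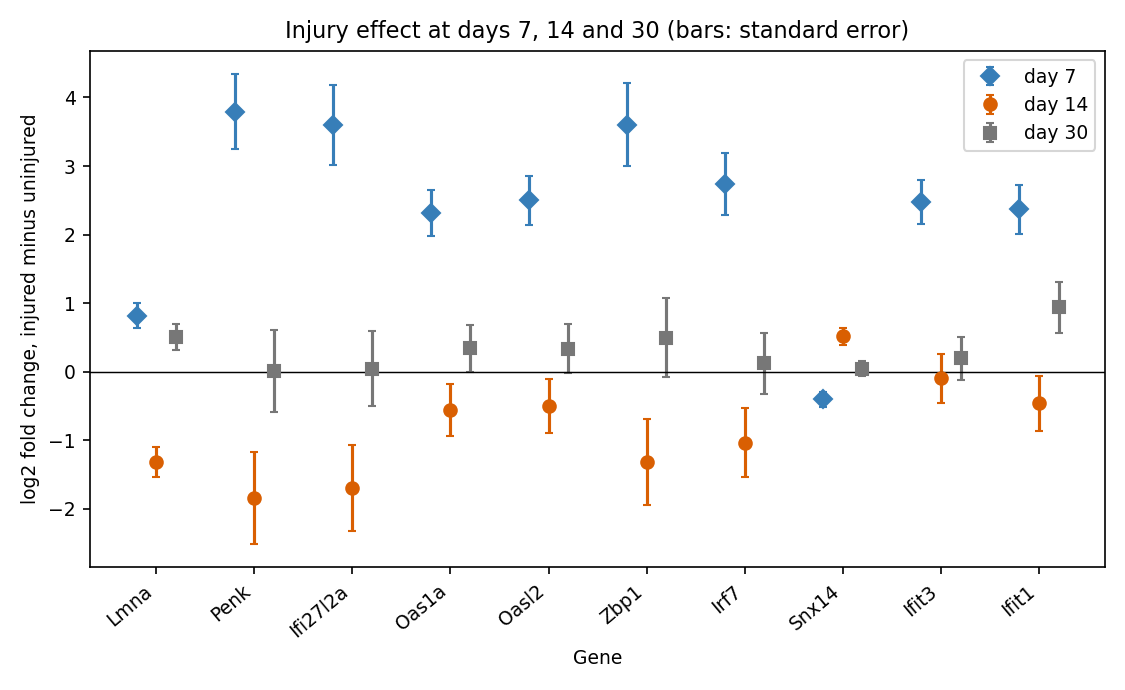
Log2 fold change of injured over uninjured at days 7, 14 and 30, with bars of 1 SE, for the 10 genes with the smallest p in the test of day 14 against day 7. Ifi27l2a, Oas1a, Oasl2, Zbp1, Irf7, Ifit3 and Ifit1 belong to the interferon list and are above 2 at day 7 and at or below 0 at day 14; Lmna alone of the 10 also differed from day 30.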

How the data were processed

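RNA of sorted microglia was extracted with the PicoPure kit, amplified through 11 cycles of PCR and made into Nextera XT libraries, per the labels' protocols, which name no molecular identifiers. Reads were aligned with STAR to mm10 (GRCm38), per the submitters' processing notes, and the authors deposited raw counts per gene, in files that end with HTSeq's summary lines. No source used here gives the counting settings or strand, so overlapping and antisense genes cannot be told apart. The percent of reads aligned and duplicated is as deposited in the authors' run summary, of which 1 line was not used. Counts outside genes were 2.85% to 7.94% of the total and were left out.

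Counts were tested with edgeR 4.0.16 in R 4.3.3 (quasi-likelihood, TMM, filterByExpr with a minimum count of 10 and total of 15, Benjamini-Hochberg adjustment over all genes tested, called under 0.05) on the 16 libraries of day 14 in 4 groups. DESeq2 1.42.0 and limma 3.58.1 were alternatives. Distances used log2 CPM with a prior count of 2. Coordinates are from GENCODE M21 on GRCm38, and promoters from RefSeq. The procedure was tested on simulated data in which no uninjured library stood apart from the others, so that test does not bear on this feature of the data. Genes named are, in each direction, the 10 with the smallest p, no overlap and a mean level of at least 3 on the log2 CPM scale, the 10 extremes of each uninjured library, the 10 with the smallest p of each interaction, leading members of each list, and 20 genes always shown. Genes and lists were chosen with earlier results of these data known. Floors for a count of 0 are 3 counts per library and cover counting error only. Some genes are not reported here.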

Additional observations from a re-analysis of the deposited data

Results flagged for a closer look

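The injury effect at day 14 differed from that at another day in the test of the difference itself for the genes below, all against uninjured libraries of day 14 that stand apart from one another. Against day 7 the difference in log2 fold change was -2.13 for Lmna, -5.63 for Penk, -5.29 for Ifi27l2a and -2.87 for Oas1a. It was -3.00 for Oasl2, -4.92 for Zbp1, -3.78 for Irf7, 0.92 for Snx14, -2.57 for Ifit3 and -2.83 for Ifit1. Against day 30 the difference for Lmna was -1.82. Both tests use the same day 14 libraries, and library year differs between the days, so year and day cannot be told apart. Without uninjured library 3, Ifit3 and Ifit1 against day 7 and Lmna against day 30 missed the threshold of edgeR's quasi-likelihood test (adjusted p = 0.0594, 0.0597 and 0.0537). With library 2 as the only uninjured library of day 14, the interferon genes differed less from day 7. The differences were -1.60 for Ifi27l2a, -1.13 for Oas1a, -1.47 for Oasl2, -1.21 for Zbp1, -0.93 for Irf7, -0.78 for Ifit3 and -1.28 for Ifit1. Lmna, Penk and Snx14 then had -1.69, -5.54 and 1.08.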

How the results depend on the processing

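The number of genes called at day 14 was 0 with DESeq2 size factors in edgeR (2047 with an unadjusted p under 0.05), limma voom, no filter on low counts and the 6 libraries alone (310 with an unadjusted p under 0.05). It was 101 with the DESeq2 test and 2529 without uninjured libraries 1 and 3, where library 2 is assumed to vary like the other groups. Leaving out 1 library at a time gave 0 to 1835 genes, the highest without uninjured library 1. With the replicate block, 0 genes were called and 78 had an unadjusted p under 0.05. Same-numbered libraries deviated with correlations of 0.045, 0.107 and 0.134, and differently numbered ones with -0.255 to 0.165. Whether same-numbered libraries share more than a number cannot be told from these values. Fits of the 6 libraries less uninjured library 1, 2 or 3, and the interactions without uninjured day 14 libraries 1 and 3, were chosen after seeing the data.

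Against day 7, 63 genes differed, with 104 under no filter, 894 with DESeq2, 3064 without libraries 1 and 3, and 15 to 2690 without 1 uninjured library (15 without library 3, 1425 without library 2, 2690 without library 1). Against day 30, 1 gene differed, with 2 under DESeq2 size factors, 0 under no filter, 103 with DESeq2, 3019 without libraries 1 and 3, and 0 to 1749 without 1 uninjured library (0 without library 3, 325 without library 2, 1749 without library 1). The cause was not tested.

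The log2 fold change of Tmem119, 0.30, became -0.24 without uninjured library 3, -0.64 without libraries 1 and 3 and -0.28 in the 6 libraries less library 3 (-0.24 to 1.31 leaving out 1 library). That of Ifit3, -0.06, became 0.093 with voom, 0.20 with the replicate block, 0.036 without injured library 2, 0.10 without uninjured library 1, 0.37 without library 3, 1.71 without libraries 1 and 3, and 0.071 and 0.35 in the 6 libraries less library 1 and less library 3 (-0.48 to 0.37). That of Ccr2, -3.82, became 0.13 with voom, 0.24 without library 3, 0.15 without libraries 1 and 3 and 0.21 in the 6 libraries less library 3 (-4.36 to 0.24). That of H2-Ab1, -1.68, became 0.15, 0.42, 0.24 and 0.38 under the same 4 settings (-2.15 to 0.42). The depth of 8681681 to 16471892 counts limits statements on genes near 0, and no setting removes the distance between the uninjured libraries.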
